A study of Mus musculus with 8 samples.

Results

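Between genes with little H3K27me3 and the dense Polycomb domains lay 2225 genes of intermediate density. Each gene was represented by the transcript interval that best overlapped its RefSeq model, and was kept if that interval was 5000 to under 300000 bp long and its density was 2 to under 4 times the median of all 50398 intervals. Density means counts per kb, scaled to 1000000 counts in each library's column and averaged over the 4 H3K27me3 libraries. With a median of 0.322, the limits were 0.645 and 1.29. The 2225 genes were 15.3% of the 14544 genes in the same length limits, of which 11658 lay below and 661 at or above 4 times the median. In all, 20225 genes had an interval, on chromosomes 1 to 10, X, Y and the mitochondrial genome; other chromosomes were not analysed here. The genes were chosen by their measured mean density, so densities are given as a description, without a test.

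Polycomb repressive complex 2 places H3K27me3, the trimethylation of lysine 27 on histone H3, through its EZH1 or EZH2 subunit. In embryonic stem cells the mark covers CpG-rich promoters of silent developmental regulators, and a thinner layer extends over inactive chromatin around them. Loss of the complex leaves stem cells able to self-renew but impairs their differentiation.

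The cells were E14tg2a mouse embryonic stem cells of 129SV background, in 2 clones (A and B) that both stably carried cRAF-ErT2, a RAF kinase fused to a tamoxifen-responsive receptor domain. Culture medium for every library contained serum, LIF and the GSK3 inhibitor Chir99021 (2 µM), replaced 24 h before treatment by serum, LIF and the FGF receptor inhibitor PD173074 (250 nM). Cells then stayed untreated (0 h) or received 250 nM 4OHT for 2 h to switch on ERK signalling, with 1 library per clone and time. The sources used here do not name the promoter that drives the cassette, and the 4 input libraries were not analysed, so no enrichment over input is given. Column totals ran from 70378127 to 92518605 counts. The pluripotency genes in the length limits, which mark the labelled cell type, were 15 and all lay below 2 times the median. Of all genes in those limits, 80.2% lay there.

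The promoters of 6 genes described below are printed first, as examples of windows that run from many CG to none. They comprise Bsn, a gene with a CpG-rich promoter; Rassf1 and Sema6c, whose density was uneven along the gene; and Lrrn2, Rarres1 and Gm40299, which were among the genes of smallest p between the clones. Each run holds the 250 bases before a RefSeq start (GRCm38.p6), 5′ to 3′ on the gene's strand, with every CG in capitals. Bsn and Gm40299 were named by rule, and the other 4 were chosen after their values were seen. The windows are chr9:108190384-108190633 (minus strand, Bsn), chr9:107551305-107551554 (plus, Rassf1), chr3:95160170-95160419 (plus, Sema6c), chr1:132880105-132880354 (plus, Lrrn2), chr3:67515524-67515773 (minus, Rarres1) and chr5:49603207-49603456 (plus, Gm40299).
Bsn: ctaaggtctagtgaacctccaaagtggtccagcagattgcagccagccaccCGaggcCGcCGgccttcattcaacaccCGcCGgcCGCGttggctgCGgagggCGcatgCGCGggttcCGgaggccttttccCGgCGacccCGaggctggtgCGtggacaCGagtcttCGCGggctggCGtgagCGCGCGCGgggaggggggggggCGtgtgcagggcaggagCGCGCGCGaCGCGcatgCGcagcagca
Rassf1: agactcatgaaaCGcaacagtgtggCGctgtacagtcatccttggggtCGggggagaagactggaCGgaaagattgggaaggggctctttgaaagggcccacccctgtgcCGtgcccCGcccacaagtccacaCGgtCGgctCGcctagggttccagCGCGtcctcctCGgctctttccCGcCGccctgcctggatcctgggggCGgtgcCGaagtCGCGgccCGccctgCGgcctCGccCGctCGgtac
Sema6c: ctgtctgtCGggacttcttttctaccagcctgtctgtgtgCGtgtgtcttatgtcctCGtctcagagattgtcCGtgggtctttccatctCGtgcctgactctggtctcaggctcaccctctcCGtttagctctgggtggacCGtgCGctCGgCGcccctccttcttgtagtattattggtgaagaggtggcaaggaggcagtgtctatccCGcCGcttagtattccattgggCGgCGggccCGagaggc
Lrrn2: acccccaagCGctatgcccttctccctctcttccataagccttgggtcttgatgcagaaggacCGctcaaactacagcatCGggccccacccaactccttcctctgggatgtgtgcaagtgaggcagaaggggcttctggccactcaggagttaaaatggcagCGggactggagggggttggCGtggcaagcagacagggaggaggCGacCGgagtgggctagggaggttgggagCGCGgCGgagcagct
Rarres1: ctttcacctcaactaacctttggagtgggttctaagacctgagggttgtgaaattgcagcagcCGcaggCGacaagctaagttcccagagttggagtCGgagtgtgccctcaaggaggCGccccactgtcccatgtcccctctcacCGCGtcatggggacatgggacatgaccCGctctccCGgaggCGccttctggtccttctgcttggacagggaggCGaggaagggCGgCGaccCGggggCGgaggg
Gm40299: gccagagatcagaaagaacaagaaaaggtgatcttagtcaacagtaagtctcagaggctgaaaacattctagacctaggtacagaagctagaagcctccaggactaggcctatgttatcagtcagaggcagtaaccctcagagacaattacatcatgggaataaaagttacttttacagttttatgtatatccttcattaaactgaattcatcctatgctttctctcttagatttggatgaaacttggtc
The dinucleotide CG, which reads the same on both strands, occurred 32 times in the Bsn window, 23 times in Rassf1, 15 in Sema6c, 14 in Rarres1, 10 in Lrrn2 and 0 times in Gm40299. Of the 11910 such windows of genes in the length limits, 93.8% held at least 1 CG, with a median of 8. All printed windows except that of Gm40299 lie above this median, so they are not typical. The rule also named Wnt5b, Cacna2d2, Esx1 and Gm36584, whose windows lie wholly or partly inside their intervals and are not printed.

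Densities within the intermediate range were not evenly spread. At 2 to under 2.5 times the median lay 1091 genes, then 598, 327 and 209 in the following steps of 0.5. At the lower limit, Ephb6, a kinase-dead ephrin receptor, stood at 2.0004 times the median and Nr1h5 just outside at 1.9998. At the upper limit, the nearest genes inside were Hcn4, at 4.0 after rounding, and Gm35851 at 3.9986. Kcnk6 lay just outside at 4.0038. The genes inside and outside each limit thus differed by far less than the spread between libraries, whose median coefficient of variation per gene was 7.48%. Applied to single libraries, the limits held 1931 of the 2225 genes in clone A at 0 h, 2019 in clone B at 0 h, 1974 in clone A at 2 h and 2007 in clone B at 2 h. All 4 libraries held 1572 of them (70.7%). The library of clone A at 2 h stood apart: the median of the 2225 genes was 2.64 times its own median interval, against 2.49 to 2.51 in the other 3.

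**Figure D1:**
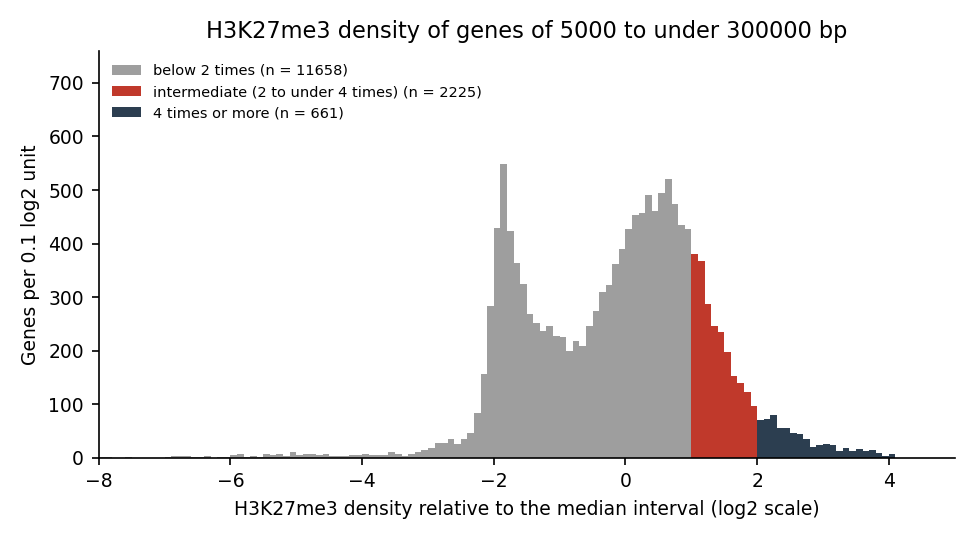
Number of genes (y axis, per 0.1 log2 unit) by H3K27me3 density relative to the median interval (x axis, log2 scale) for genes of 5000 to under 300000 bp; colours give the 3 density classes. The 2225 intermediate genes occupy the falling right side of the main mode, between log2 values of 1 and 2.

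Intermediate genes were shorter than genes with less of the mark and longer than dense ones. Their median interval was 17341 bp, against 22872 bp below and 10748 bp at 4 or more times the median. By length, the intermediate share was 17.8% of genes of 5000 to under 10000 bp and 10.2% of those of 100000 to under 300000 bp, and the dense share 9.38% and 0.306%. Protein-coding genes made up 1369 (61.5%) and long noncoding RNA (lncRNA) genes 842 (37.8%); the lncRNA share was 28.4% below and 28.1% above. Of these lncRNA genes, 622 (73.9%) overlapped none of the intervals chosen for protein-coding genes, 113 overlapped an intermediate and 24 a dense one. Other transcript intervals of coding genes were not checked. Counts ignore strand, so reads of overlapping genes cannot be told apart. The 2225 genes formed 2071 loci without overlap, and 1928 stood alone in theirs.

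On the autosomes 13.0% (chromosome 10) to 17.9% (chromosomes 7 and 9) of genes were intermediate. On the X chromosome 33 of 800 were (4.13%), and on the Y chromosome 0 of 55 were. The X also had lower values outside the range: genes below 2 times the median had a median of 0.449 times there, against 0.714 to 0.947 times on the autosomes. E14tg2a is a male line, and the part of X copy number in these values was not tested. The X values were singled out after they were seen.

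The gene lists described here were tallied as counts in the length limits, with no set test. Ion channel genes were often intermediate. Among potassium channel genes, which set the resting potential and repolarize excitable cells, 18 of 43 were intermediate and 14 dense, against 15.3% and 4.54% of all genes in the length limits. This list was read by symbol prefix and includes Kcnip3, a channel-interacting protein, and Kcnq1ot1, an imprinted lncRNA. Kcnd3, an A-type channel, had densities of 0.921 and 0.957 in clone A at 0 h and 2 h, against 1.04 and 1.04 in clone B. Sodium, calcium and Trp channel genes had 13 of 36 intermediate and 1 dense. Cacna2d2, an auxiliary calcium channel subunit, stood at 2.08 times the median.

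Lists of synapse, receptor, axon guidance and cadherin genes were 29.4% to 42.9% intermediate. Of the synapse organizer genes 9 of 21 were intermediate and 3 dense. Bsn, a scaffold of the presynaptic active zone, had 0.874 and 0.961 in clone A at 0 h and 2 h, against 0.723 and 0.753 in clone B. Of the neurotransmitter receptor genes 16 of 54 were intermediate and 12 dense, among them Grin2d, an NMDA receptor subunit, at 3.98 times the median and Drd2, a dopamine receptor, at 2.17 times. Axon guidance genes had 15 of 40 intermediate and 7 dense, including the plexin Plxnc1 (2.02 times), the neuropilin Nrp2 (2.28), the netrin receptor Unc5b (2.36) and the netrin-like Ntng2 (2.88). Cadherins, which hold cells together, had 5 of 17 intermediate and 1 dense, with endothelial Cdh5 at 3.91 and Cdh22 at 3.75 times.

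Among signalling genes, ligands, receptors and nuclear effectors were all found in the range. Wnt pathway genes had 9 of 27 intermediate and 8 dense: the ligand Wnt5b stood at 2.33 times the median, the R-spondin receptors Lgr5 and Lgr6 at 3.31 and 2.83, and the nuclear effector Lef1 at 2.75. FGF and receptor tyrosine kinase genes had 10 of 27 intermediate and 5 dense. Fgfr2, an FGF receptor, had 1.04 and 1.06 in clone A, against 1.01 and 1.01 in clone B, and Kdr, the VEGF receptor of endothelium, 0.979 and 0.968 in A and 1.06 and 1.03 in B. BMP, Nodal and TGF-beta genes had 6 of 32 intermediate and 6 dense, with the ligands Bmp7, Bmp3 and Bmp8a at 2.20, 3.07 and 2.35 times and the effector Smad9 at 2.56. Of the ERK feedback and immediate early genes 2 of 10 were intermediate and 4 dense. Dusp4, a nuclear phosphatase of ERK, had 1.17 and 1.14 in clone A, against 1.25 and 1.31 in clone B, and Dusp7, a cytoplasmic one, had 0.785 and 0.918 in A and 0.795 and 0.866 in B.

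Lineage transcription factors were more often dense than intermediate, with 19 of 111 intermediate and 59 dense. The intermediate ones included long genes: Pax5, the B cell regulator, over 178935 bp at 3.17 times the median, Lmx1a (midbrain) over 159842 bp at 2.96, Zeb2, a repressor of epithelial genes, over 130520 bp at 2.98 and Tbx15 over 113912 bp at 3.12. Collagen and matrix genes had 24 of 71 intermediate and 5 dense, among them the basement membrane genes Col4a1 and Col4a2 at 2.39 and 2.35 times; the intervals of these neighbours overlap at 1 end. Solute carriers had 39 of 214 intermediate and 11 dense, and adhesion and orphan G protein-coupled receptors 12 of 54 and 6.

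Lists of zinc finger, olfactory receptor, oxidative phosphorylation, ribosomal, housekeeping and Polycomb genes lay mostly below the range. So did 80.2% of all genes in the length limits. The housekeeping list, with 4 of 5 genes below, and the Polycomb list, with 13 of 16, lay near that share. Zinc finger genes named Zfp had 16 of 220 intermediate and 6 dense, and olfactory, vomeronasal and taste receptor genes 5 of 141 and 0. Of the oxidative phosphorylation genes 1 of 39 was intermediate: Cox4i2, an isoform of cytochrome oxidase subunit 4 used in few tissues. Cytosolic ribosomal protein genes had 0 of 6 in the range. Of the housekeeping genes 1 of 5 was intermediate, B2m, the light chain of MHC class I, which is low in stem cells. Polycomb subunit genes had 2 of 16, Bcor and Phf19. Markers of other cell types that a culture could hold were also in the range: fibroblast genes had 5 of 14 (Twist2, Prrx1, Col1a2, Loxl1 and Col6a2) with 1 dense, primitive endoderm genes 4 of 8 (Fgfr2, Col4a1, Col4a2 and Pdgfra) with 1 dense, and trophectoderm genes 1 of 9 (Esx1) with 5 dense. Some of these genes are also in other lists, and no expression was measured.

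**Figure D2:**
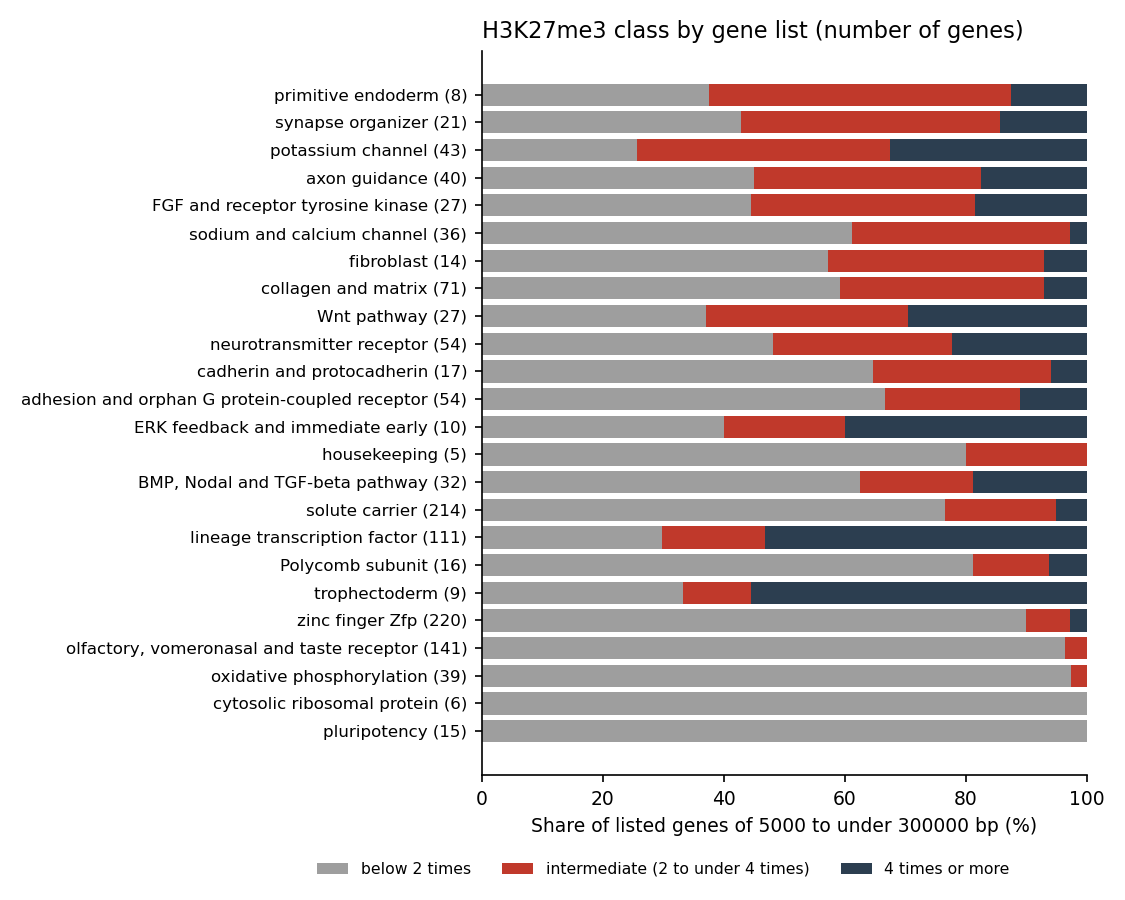
Share of each list's genes of 5000 to under 300000 bp (x axis, %) that lay below 2 times, at 2 to under 4 times and at 4 or more times the median interval, with the number of genes in parentheses. Lists of channel, synapse and axon guidance genes have large intermediate shares, and lineage transcription factors have 59 of 111 genes in the dense class.

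For 574 intermediate genes, nested intervals of the same gene split the counts into a start part and an end part of at least 2000 bp each. The median ratio of start to end density was 1.23 (SD 0.0115 over the 4 libraries), against 1.10 for 2744 genes below the range and 1.29 for 151 dense ones. The parts share the counts that chose the genes, so this is a description. Protein-coding genes had a ratio of 1.33 (n = 384) and lncRNA genes 1.07 (n = 188). The start part was at least 2 times as dense as the end part in 144 genes (25.1%) and at most 0.5 times in 35 (6.10%). Both parts were themselves intermediate in 221 (38.5%). In 53 genes a dense start was joined to an end below 2 times the median, and in 10 a dense end to such a start.

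Rassf1, a tumour suppressor with alternative promoters (chromosome 9, 107551555 to 107562267, mm10), had the highest ratio. Its first 3028 bp stood at 7.76 times the median and the remaining 7685 bp at 0.349 times, a ratio of 22.2. In the first part densities were 2.44 and 2.37 in clone A at 0 h and 2 h, against 2.51 and 2.69 in clone B, and in the rest 0.113, 0.0788, 0.118 and 0.141. The split lies at the second RefSeq start, 3028 bp in, because the nested interval begins there. The second start's window of 250 bases holds 24 CG, close to the 23 of the first window printed above.

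Sema6c, a transmembrane semaphorin (chromosome 3, 95160420 to 95174050), had the reverse pattern. Its first 3919 bp stood at 0.867 times the median and the remaining 9712 bp at 4.48 times. Here too the split is set by the second RefSeq start, whose window holds 0 CG against 15 in the window of the first. Kiss1, which encodes the kisspeptin peptides, stood at 1.06 times in its start part and 4.86 times in its end part, and the lncRNA Gm39590 at 0.618 and 3.31 times.

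Several genes had a short dense start and a long remainder of lower density. Pdgfra, the PDGF receptor of primitive endoderm and mesenchyme, had 13.9 times the median in its first 3681 bp and 1.99 times in the remaining 43131 bp. Hs3st2, a heparan sulfate sulfotransferase, had 11.2 and 1.81 times. Lef1 had 8.63 and 2.62 times and Zeb2 8.40 and 2.80 times, with both parts at or above 2 times. Impdh1, an enzyme of guanine nucleotide synthesis, had 8.66 and 0.917 times. The named cases other than those with the 5 highest and 5 lowest ratios were chosen after their values were seen.

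**Figure D3:**
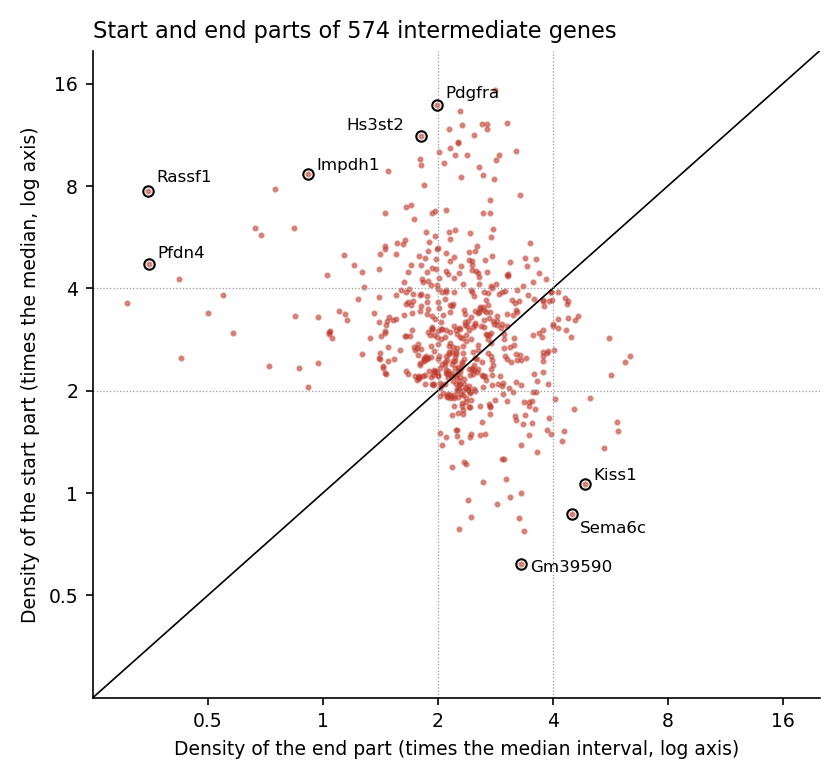
Density of the start part (y axis) against that of the end part (x axis), both in times the median interval on log axes, for the 574 intermediate genes with a split; the line marks equal density and dotted lines mark 2 and 4 times. Rassf1 and Pdgfra lie far above the line and Sema6c, Kiss1 and Gm39590 far below it.

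Intermediate genes lay near dense intervals more often than genes with less of the mark. A dense interval that did not overlap the gene lay within 100 kb of 873 (39.2%, exact 95% interval 37.2 to 41.3), against 22.4% of genes below the range and 57.9% of dense genes. A dense interval overlapped 252 of the 2225 genes (11.3%). Among the 1973 without such an overlap the share with a dense neighbour was 38.3%, against 22.3% below the range. The intervals cover counting error only, and neighbouring genes share dense intervals.

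Promoter CpG content differed by class among genes with a RefSeq promoter entry, which 1782 of the 2225 had (80.1%). An earlier limit of 500 bp between entry and interval start left 1461 (65.7%) and was dropped after this coverage was seen. The entry thus lay within 500 bp of the interval start for 1461 of the 1782. Below the range it did for 8474 of the 9628 genes with an entry. Other entries lay farther off, at 24394 bp for Cercam. The median observed/expected CpG ratio from 250 bases before to 50 after the RefSeq start was 0.356, against 0.528 below the range. For protein-coding genes it was 0.464 against 0.692, and for lncRNA genes 0.249 against 0.232. Coding genes below the range were themselves split: the ratio was 0.801 at under 0.5 times the median, 0.629 at 0.5 to 1 and 0.370 at 1 to 2 times. A comparison with dense genes was not made, since 75.6% of them had an entry, below the 80% set for such a check.

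The first tested comparison asked whether the mark changed over 2 h of ERK activation. No intermediate gene was called: edgeR's quasi-likelihood test with Benjamini-Hochberg adjustment over 50037 intervals called 0 of 2225, against 0% of all intervals, and 0 had an unadjusted p under 0.05 against 0.376% of intervals. DESeq2 also called 0, with 0 of the genes at that level. These fits had no block, so differences between the clones enter their error. With clone as a block, edgeR called 0, and 113 (5.08%) had an unadjusted p under 0.05 against 4.15% of intervals. Of the 113 genes, 102 were higher and 11 lower at 2 h. The split by direction over all intervals was not counted. In the fit without a block, the median log2 change of the 2225 genes was 0.02 with all libraries and −0.03 without that of clone A at 2 h. The 95% interval of the change lay within 1.5-fold either way for 2087 genes (93.8%), and for all 2225 in the paired fit. These intervals are not adjusted for the number of genes.

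The median log2 change of the 2225 genes was 0.02, with 0.07 for clone A, −0.03 for clone B, and −0.03 without the library of clone A at 2 h. Of them 643 (28.9%) were higher at 2 h in both clones and 380 (17.1%) lower, against 26.4% and 22.7% of all intervals. Fam189b, a membrane protein gene, had 0.846 and 1.05 in clone A at 0 h and 2 h, against 0.956 and 1.11 in clone B. Its log2 change was 0.26 (SE 0.13, n = 2 per time, unadjusted p = 0.0783 by edgeR). With clone as a block the SE was 0.09 (unadjusted p = 0.00507 by edgeR), and the gene was not called. Kcnn4, a calcium-activated potassium channel, had 1.06 and 1.23 in A and 1.07 and 1.25 in B, and both 2 h values exceeded both 0 h values. Agt, the angiotensin precursor, had 0.724 and 0.870 in A and 0.677 and 0.793 in B, also without overlap between the times. The lncRNA Gm20758 had the opposite order, with 0.986 and 0.830 in A and 0.955 and 0.877 in B. Its log2 change was −0.19 (SE 0.10, and 0.06 with clone as a block). Kcnn4, Agt and Gm20758 were not called (unadjusted p = 0.0795, 0.0861 and 0.112 by edgeR without a block). The share of genes without overlap between the times was not counted.

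Sema6c, singled out after its value was seen, had the lowest p of the 2225 genes in the paired fit (unadjusted p = 0.000722 and adjusted p = 1.00 by edgeR). Sema6c had 1.11 and 1.33 in clone A, against 0.932 and 1.07 in clone B, so each clone was higher at 2 h but the times overlapped. Of the ERK phosphatases, Dusp7 had a log2 change of 0.17 (0.24 in clone A and 0.10 in B) and Dusp4 of 0.01 (−0.03 and 0.05), and neither was called.

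The clones differed at many intermediate genes. Of the 2225, edgeR called 1051 (47.2%), against 27.5% of all 50037 intervals. Clone A was higher in 709 (31.9%, against 17.3% of intervals) and lower in 342 (15.4%, against 10.3%). Genes below the range were called in 22.3% and dense genes in 62.5%. Among genes with a mean count of 1000 to 3000, a range chosen after seeing the data, the shares were 35.4%, 53.5% and 66.1%. Each clone is 1 clone sampled at 2 times, so the test compares these 2 clones with the spread between their libraries, which may be technical. Calls higher in A fell to 456 without clone B at 2 h, and calls lower in A to 199 without clone A at 0 h and 180 without clone B at 0 h.

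Most of these differences were small. Among genes called higher in A the median log2 difference was 0.32, and 60 exceeded 1.5-fold. Among the 342 called lower in A the median was −0.25, with 5 beyond 1.5-fold. The difference had the same sign at 0 h and at 2 h in 1812 of the 2225 genes (81.4%), against 71.0% of all intervals. At a mean count of 1000 to 3000 the share was 83.3%, against 78.2% below the range and 87.9% in dense genes. Across the 2225 genes the deviations of the clones at 0 h and at 2 h correlated at r = 0.902, against 0.531 over all intervals. These values are across genes or intervals, which are not independent replicates. The correlations were not compared at matched counts: the median mean count was 1247 in the 2225 genes and 505 over all intervals.

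Setd1b, a histone H3 lysine 4 methyltransferase gene (chromosome 5, 123142105 to 123168630), had 0.972 and 0.905 in clone A at 0 h and 2 h, against 0.456 and 0.453 in clone B. The clones did not overlap, and the log2 difference was 1.06 (SE 0.06, n = 2 per clone, adjusted p = 2.91e-56 by edgeR). Commd7 had 1.33 and 1.41 in A and 0.683 and 0.622 in B, a log2 difference of 1.09. Lrrn2, a neuronal leucine-rich repeat protein gene, had 0.986 and 1.07 in A and 0.574 and 0.584 in B. Gm11476, an lncRNA, and Cercam, an adhesion protein gene, were higher in A by 0.74 and 0.78 on the log2 scale. Loxl1, which cross-links elastin, had 1.06 and 1.21 in A and 0.660 and 0.681 in B, again with no overlap.

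In the other direction, the lncRNA Gm40299, whose promoter window printed above holds no CG, had 0.732 and 0.738 in clone A, against 1.31 and 1.27 in clone B (log2 −0.79, SE 0.07, adjusted p = 2.65e-25 by edgeR). Gm36584 and 1700010L04Rik, lncRNA genes whose intervals overlap on chromosome 7 and share reads, gave −0.57 and −0.69. Rarres1, a retinoic acid responsive gene, had 0.793 and 0.762 in A and 1.13 and 1.12 in B. B2m had 0.719 and 0.637 in A and 1.12 and 1.06 in B, and Col1a2, a fibrillar collagen gene, 0.699 and 0.706 in A and 0.940 and 0.870 in B. In all 4 of these per-library series the clones did not overlap. Pdgfra (0.970 and 0.976 in A, 0.899 and 0.931 in B), Fgfr2, Pax5, Lef1 and Dusp4, none of them called, did not overlap either. A lack of overlap, here or above, thus does not by itself set a gene apart. The share of intermediate genes without overlap was not counted.

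**Figure D4:**
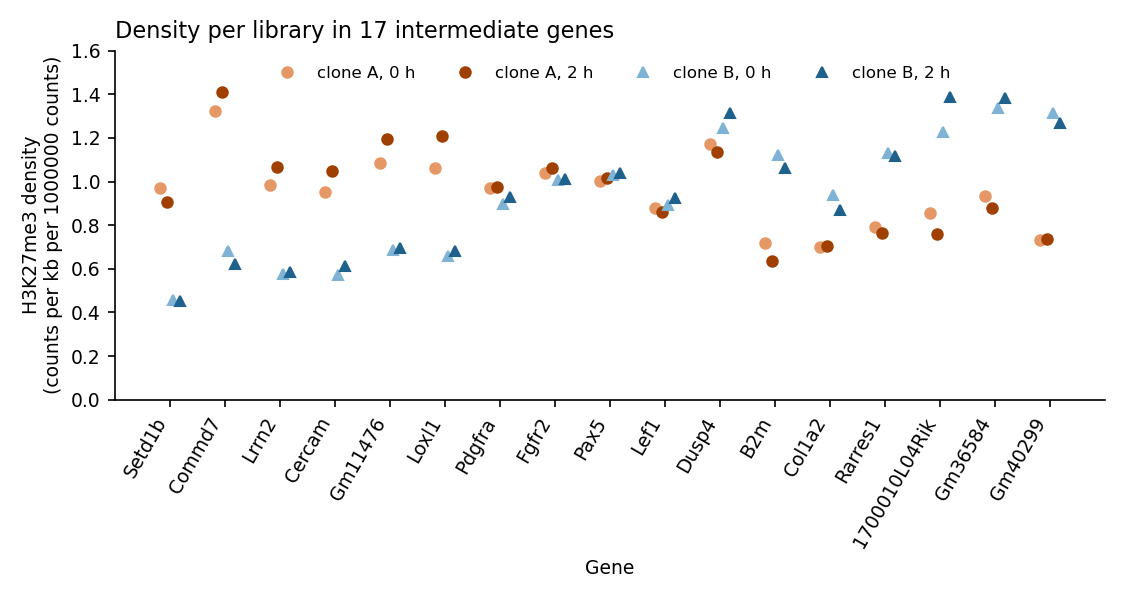
H3K27me3 density (y axis, counts per kb per 1000000 counts, from 0) of 17 intermediate genes in each of the 4 libraries; circles are clone A, triangles clone B, light colours 0 h and dark colours 2 h. The genes were chosen after their values were seen. Clones lie farther apart from Setd1b to Loxl1 and from B2m to Gm40299. In the genes between them, Pdgfra to Dusp4, the clones lie closer together but do not overlap either.

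By gene type, protein-coding intermediate genes were called higher in A in 38.9% and lower in 12.1%, and lncRNA genes in 20.4% and 20.7%. Counts for lists of mostly protein-coding genes are to be read against that 38.9% higher and 12.1% lower. Over all intermediate genes, lncRNA genes included, the shares were 31.9% and 15.4%. Of the potassium channel genes 7 of 18 were higher in A and 5 lower; the imprinted lncRNA Kcnq1ot1 gave a log2 difference of 0.43. Of the neurotransmitter receptor genes 8 of 16 were higher and 0 lower, with Grin2d at 0.39, and of the synapse organizer genes 4 of 9 and 0, with Bsn at 0.33. Of the collagen and matrix genes 8 of 24 were higher and 8 lower. Of the FGF and receptor tyrosine kinase genes 1 of 10, Flt3, a receptor of blood progenitors, was called, at 0.24. Of the lineage transcription factors 2 of 19 were higher and 3 lower.

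The median difference between clones shifted toward clone A at higher density within the range. The median log2 difference was 0.00 at 2 to 2.5 times the median, 0.06, 0.12 and 0.14 in the following steps, −0.02 below the range and 0.19 in dense genes. At 0 h alone it was −0.038, 0.002, 0.077 and 0.075 over the steps within the range. The 90th percentile of the absolute difference was 0.385, 0.410, 0.433 and 0.471 in the same steps. At 0 h the 2225 genes had a median of −0.00 and at 2 h of 0.09. Without the library of clone A at 2 h the median over both times was 0.01, and without that of clone B at 2 h 0.00, against 0.05 with all libraries.

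**Figure D5:**
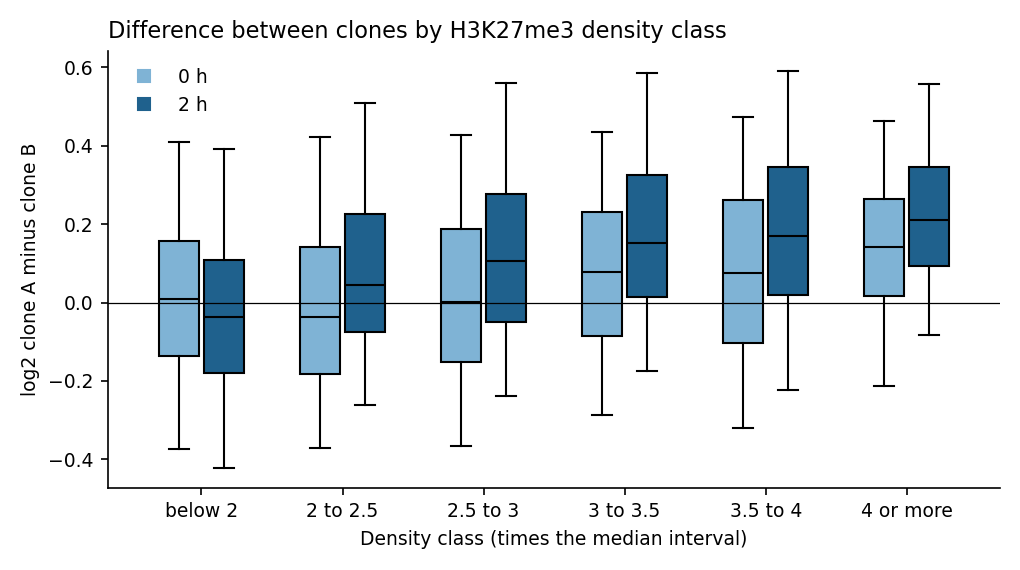
Log2 difference between clone A and clone B (y axis) by density class (x axis, times the median interval) at 0 h and 2 h; boxes span the quartiles with the median, and whiskers the 5th to 95th percentile of genes. Within the intermediate classes the 2 h boxes sit above the 0 h boxes, and the dense boxes lie above 0 at both times.

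Neighbouring intermediate genes were compared last, in a test-free count added once the calls were known. Of 797 adjacent pairs that did not overlap and lay up to 100 kb apart, both genes were called in 225 (28.2%), in the same direction in 211 (93.8%; 146 higher and 65 lower in A) and in opposite directions in 14. Among all genes in the length limits, both were called in 1100 of 10456 such pairs (10.5%), in the same direction in 907 (82.5%). Below the range both were called in 467 of 7770 pairs (6.01%), in the same direction in 352 (75.4%). The share of pairs with both called rises with the share of single genes called. That was 47.2% of intermediate genes and 22.3% of genes below the range. The differences between the pair shares were not tested. Members of a pair lie in 1 chromosomal region and are not independent.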

How the data were processed

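H3K27me3 ChIP-seq reads were counted by the authors over transcript intervals, introns included, and deposited as whole-number counts, per the file headers. The submitters' processing notes name Bowtie2, bedtools and mm10. Versions, read filters and counting settings: not given in the sources used here. A further 12 unnamed per-library columns were not used, and intervals end at chromosome 10 of the numbered chromosomes.

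Intervals took a RefSeq gene name (GRCm38.p6, the assembly behind mm10) when the overlap reached 0.5 of their union and exceeded the next gene's by 0.2. The best interval was picked per gene before the limits were applied. The members and lists were chosen with earlier results of these data known. Column totals are not depths, because overlapping intervals count a read repeatedly.

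Tests used edgeR 4.0.16 (quasi-likelihood, TMM, filterByExpr, all intervals, Benjamini-Hochberg adjusted p read at 0.05) in R 4.3.3, without a block, and were checked on simulated data. DESeq2 1.42.0, other scalings, no filter, 1 interval per gene, replicate blocks and leaving out each library were alternatives. The clone letters in the labels pair the libraries across times: their deviations correlated at r = 0.531 over 50037 intervals and 0.902 over members. Text named up to 4 members per list by count, 5 per direction by p in each comparison with the same sign in both clones or times, 5 at each side of the limits, all ERK list members, 5 at each end of the start to end ratio, and promoters by CpG ratio among these; others are said to be chosen after seeing values. Some genes that the rule names are not reported here. Groups hold 2 libraries, and nothing says that they are separate cultures, so each p-value reflects how these libraries vary. Tables and figures used Python 3.11.15 with pandas 2.3.3, SciPy 1.17.1 and matplotlib 3.10.9.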

Additional observations from a re-analysis of the deposited data

Results flagged for a closer look

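With 1 library per clone and time, the medians of the intermediate genes went opposite ways in the 2 clones over 2 h, and these differences were not tested. For clone A the median log2 change was 0.07, for clone B −0.03, and the difference 0.1036. It was 0.08 and −0.02 for protein-coding genes (0.1061) and 0.06 and −0.04 for lncRNA genes (0.09827). By density, clone A minus clone B was 0.09828 at 2 to 2.5 times the median interval, 0.1062 at 2.5 to 3, 0.1083 at 3 to 3.5 and 0.0999 at 3.5 to 4.

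The median difference between the clones likewise had opposite signs at the 2 times in some of these groups, also untested. Over all intermediate genes it was −0.00 at 0 h and 0.09 at 2 h (0 h minus 2 h −0.09552). For lncRNA genes it was −0.06 and 0.02 (−0.08897), and at 2 to 2.5 times the median −0.04 and 0.04 (−0.08261). The library of clone A at 2 h, which had the highest median over these genes, enters each change of clone A and each clone difference at 2 h. Without it the median change over 2 h was −0.03 and the median clone difference 0.01 over all intermediate genes. Without the library of clone B at 2 h these medians were 0.04 and 0.002.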

How the results depend on the processing

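The number of intermediate genes ran from 1786 (median over named genes, 1675 shared) to 2372 (limits applied before 1 interval per gene was kept, added after seeing the data), and from 2195 to 2269 with 1 library left out. No alternative called a member over time; leaving out clone A at 2 h called 1 interval lower (range 0 to 1). Between clones, 8633 intervals were higher and 5132 lower in A, against 5666 and 3028 with DESeq2 (9771 without an adjusted p), 3181 and 2110 with 1 interval per gene, and 3150 and 2056 with 1 interval per gene under time as a replicate block (added after seeing the data; fewer intervals tested). With 1 library left out, intervals higher ran from 5252 to 8087 and lower from 3414 to 4398, and members higher from 456 to 741 and lower from 180 to 366. Such fits assume that a lone library varies like the others. DESeq2 called 534 members higher and 229 lower. The replicate block gave 704 and 338 members between clones and 0 over time and changed no other call count by over 1.5 times. Leaving out 1 library, the time change of Dusp4 ran from −0.0985 to 0.0944 (−0.0336 without clone A at 0 h), that of Brsk2 from −0.0217 to 0.356, and the clone difference of Dusp7 from −0.0737 to 0.172; the cause was not tested. Of 54 named genes not called between clones, 5 changed sign under other settings (log2 at most 0.02; 2 became called) and 22 with 1 library left out (at most 0.13; 6 became called). Of 57 named genes called between clones, 11 lost the call under other settings and 20 with 1 library left out. A dense neighbour lay within 50 kb of 28.4% and 200 kb of 53.2%. The promoter CpG ratio was 0.344 over 250 bases and 0.374 with entries within 500 bp, too few for a comparison.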

Other observations

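Among protein-coding intermediate genes with a promoter entry, a set of classes chosen after seeing the data, 172 of 406 with a CpG ratio of 0.6 or more had a higher level in clone A (42.4%) by the edgeR call, and 38 a lower one (9.36%). Of the 698 with a lower ratio 251 were higher (36.0%) and 96 lower (13.8%). For lncRNA genes the calls were 21 higher and 11 lower of 96, and 119 and 130 of 582. The difference between these groups was not tested.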
